A study of Homo sapiens with 6 samples.

Results

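The 9 genes GLUD1, GOT1, GOT2, IDH1, IDH2, MDH1, PC, SLC25A1 and ACLY encode enzymes and a carrier that move carbon from glutamine and pyruvate into citrate and on to cytosolic acetyl-CoA. They were chosen by function, with earlier results of these data known. Each Ensembl gene in the count table was matched to these symbols, which picked out 9 of 61859 genes. Their RNA was measured by sequencing in IOMM-Lee cells, an established cell line grown from a grade 3 meningioma, the most aggressive class of a tumour that arises in the brain's coverings. Normoxia cultures (3 libraries) were compared with cultures kept at 0.2% oxygen for 48 h in a hypoxia workstation (3 libraries). The normoxia time is also given as 48 h, and the normoxia oxygen level is not given in the sources used here. All cultures grew in DMEM with 10% serum, penicillin and streptomycin at 37 °C and 5% CO2, and no genotype difference or other agent is named for either group. The line is 1 tumour's cells in culture, and the labels call the libraries biological replicates without saying whether they came from separate cultures, so p-values measure the spread between these libraries.

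Glutamine enters cells through amino acid transporters and is turned into glutamate in mitochondria. Glutamate becomes 2-oxoglutarate through glutamate dehydrogenase (GLUD1), which releases ammonia, or through aminotransferases such as GOT1 in the cytosol and GOT2 in mitochondria, which pass the amino group on. 2-Oxoglutarate can go forward around the tricarboxylic acid cycle, or be carboxylated backwards to isocitrate by the NADPH-dependent isocitrate dehydrogenases IDH1 (cytosol) and IDH2 (mitochondria). This reverse route is called reductive carboxylation and is known as a source of citrate for lipid synthesis in cells that are short of oxygen. The carrier SLC25A1 takes citrate out of mitochondria, and ACLY splits it into acetyl-CoA and oxaloacetate. MDH1 reduces cytosolic oxaloacetate to malate, and PC makes mitochondrial oxaloacetate from pyruvate. RNA levels do not measure the flow of carbon through any of these steps.

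Library totals ran from 14685317 to 19554178 counts in normoxia and from 10619864 to 18447885 in hypoxia. Levels are CPM, counts scaled by TMM-adjusted library totals to a common depth, and 3 counts in a library corresponded to between 0.133 and 0.316 CPM. Hypoxia replicate 3 stood apart from the other hypoxia libraries, at 47.7 on the second principal component of log2 CPM (7.83% of the variance) against -27.2 and -20.1, so values that rest on it are given with and without it. Mitochondrially encoded RNA took 6.42% to 7.29% of counts in normoxia and 2.05% to 3.05% in hypoxia, and its part in the results was not tested. Of 6 meningioma and arachnoid markers, VIM, DSP and MUC1 were present in every library and rose in hypoxia, 2.01-fold, 3.01-fold and 4.27-fold (edgeR adjusted p = 0.00015, 2.99e-07 and 2.15e-06). SSTR2 lay between 0.181 and 1.15 CPM and fell by edgeR (adjusted p = 0.0304) but was not called by DESeq2, and PGR and PTGDS were at or below 0.105 CPM in every library. For 8 markers of leukocytes, endothelium, glia and keratinocytes the summed level was 9.07 to 10.8 CPM in normoxia and 6.85 to 8.46 CPM in hypoxia, with the keratin KRT14 at 0 in all 6 libraries. Of the 3 tested, the glial marker OLIG2, at 6.37 to 7.59 CPM in normoxia, made up most of the normoxia sum. It fell 1.80-fold (edgeR adjusted p = 0.0286). GFAP and the endothelial marker PECAM1 were not called (edgeR adjusted p = 0.469 and 0.217). PECAM1 was at 0.316, 1.33 and 3.43 CPM in hypoxia replicates 1, 2 and 3. The part of these marker changes in the results was not tested.

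Matches to the letters ACGTG were looked for on both strands of the RefSeq promoter windows (GRCh38.p14, 250 bases before to 50 after each start). These letters are a form of the core of the element that hypoxia-inducible factors bind, and other forms were not looked for. All 9 members had a window, 14 in all, and 3 of the 14 (21.4%) held the letters, against 21.4% of 35116 windows. The 3 are shown from 250 to 42 bases before the start, on the gene's strand (minus in each case), with the match in capitals.
GOT2 (chr16:58734358-58734566): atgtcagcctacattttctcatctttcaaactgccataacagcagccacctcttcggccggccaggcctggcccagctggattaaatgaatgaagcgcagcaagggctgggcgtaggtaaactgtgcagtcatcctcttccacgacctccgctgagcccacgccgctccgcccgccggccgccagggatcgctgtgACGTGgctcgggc
IDH1, 1 of its 2 windows (chr2:208254500-208254708): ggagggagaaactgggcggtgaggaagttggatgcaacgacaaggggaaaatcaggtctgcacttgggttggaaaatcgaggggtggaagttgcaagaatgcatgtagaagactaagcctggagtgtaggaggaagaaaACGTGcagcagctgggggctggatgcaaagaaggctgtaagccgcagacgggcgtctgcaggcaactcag
PC, 1 of its 3 windows (chr11:66958425-66958633): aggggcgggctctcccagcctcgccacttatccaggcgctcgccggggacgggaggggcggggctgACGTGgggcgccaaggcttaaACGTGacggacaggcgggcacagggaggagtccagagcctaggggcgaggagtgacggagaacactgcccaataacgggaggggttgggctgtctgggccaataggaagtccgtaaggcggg
The match began 54 bases before the start in GOT2, 111 bases before it in IDH1, and 184 and 163 bases before it in PC. GOT2 and IDH1 were among the members that fell in hypoxia, and PC was not called. No ACGTG match was found in the windows of IDH2 and SLC25A1, which rose. The same held for ACLY, GOT1 and MDH1, which fell, and for GLUD1, which was not called. The part of these letters in the changes was not tested. The windows follow RefSeq starts. The upstream parts of every ACLY, GOT1, IDH1, IDH2 and MDH1 window, and of the PC windows not shown, lie inside the GENCODE gene, and that of SLC25A1 reaches into it, so these windows are not all sequence upstream of the gene.

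In hypoxia 5 of the members fell and 2 rose. GOT1, GOT2, IDH1, MDH1 and ACLY were between 1.76-fold and 2.39-fold lower, while the mitochondrial enzyme IDH2 and the citrate carrier SLC25A1 were 1.66-fold and 1.67-fold higher. GLUD1 and PC did not pass the test. Thus 7 of 9 members passed, where 62.2% of 16411 tested genes did (edgeR quasi-likelihood test, Benjamini-Hochberg adjusted p under 0.05 over all tested genes). The 5 that fell compare with 31.0% of tested genes lower, and the 2 that rose with 31.2% higher. Of the members, 3 changed at least 2-fold (GOT1, GOT2 and ACLY), where 33.9% of tested genes did. The groups of libraries did not overlap for 7 members, where this held for 67.9% of tested genes. For SLC25A1 this rested on 68.4 CPM in hypoxia replicate 3 against 68.3 CPM in normoxia replicate 3. The shares for any call, for 2-fold changes and for groups that did not overlap are near the background. In bulk RNA, fewer cells that express a gene and less RNA per cell cannot be told apart. All 9 members passed the filter on low counts. The member with the median change was IDH1, at -0.82 on the log2 scale, against a median of 0.01 over all tested genes. The members' summed level was 869 to 913 CPM in the normoxia libraries and 568 to 650 CPM in the hypoxia libraries.

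**Figure D1:**
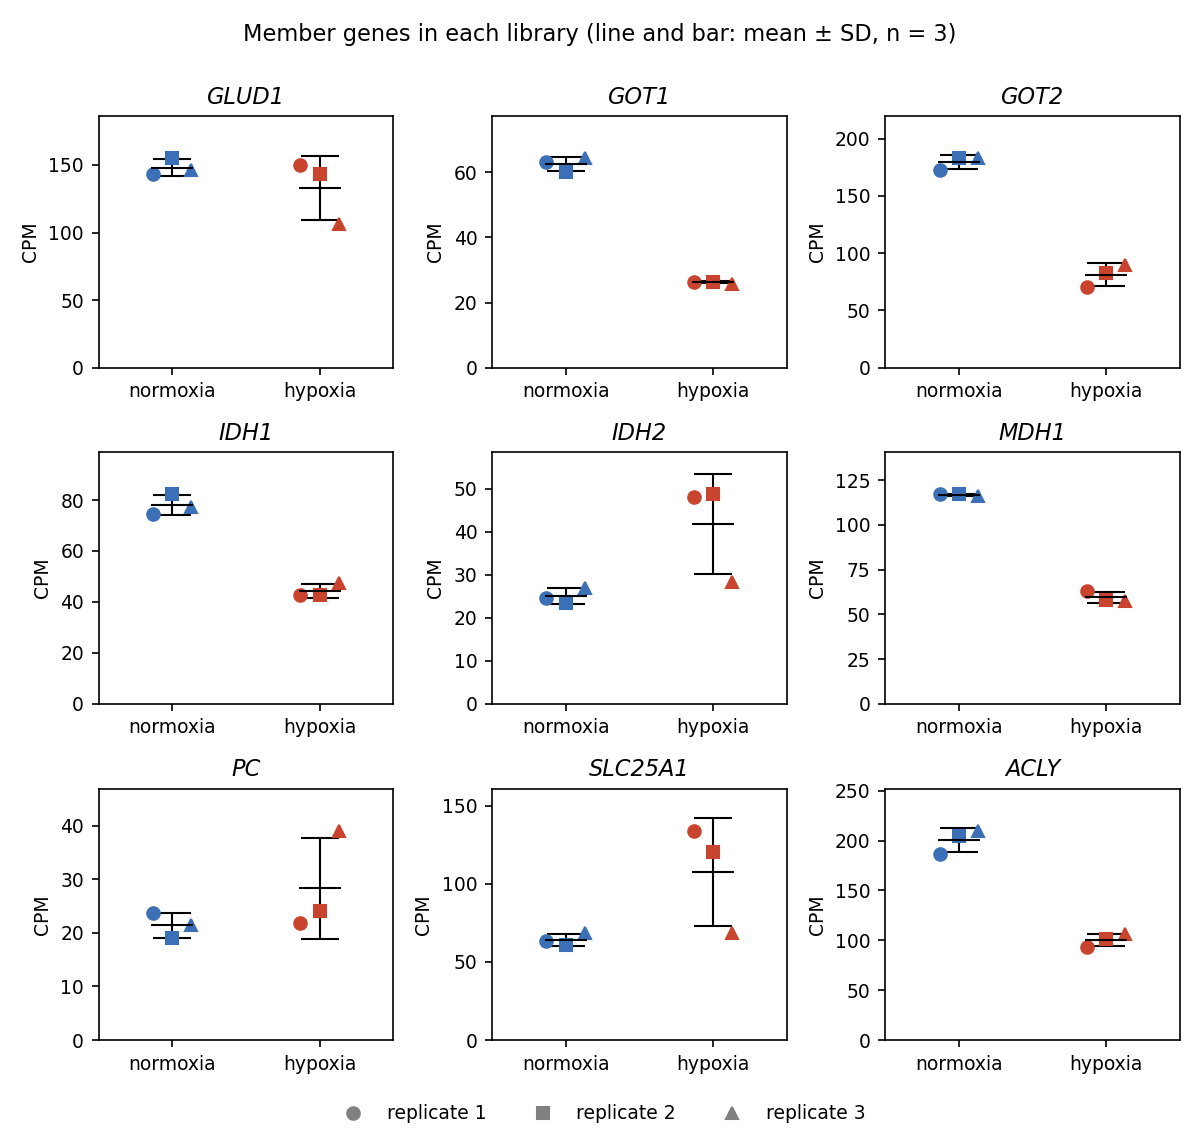
Level of each of the 9 member genes (CPM, linear axis from 0) in the 3 normoxia (blue) and 3 hypoxia (red) libraries, with marker shape for the replicate and lines for the mean ± SD. GOT1, GOT2, IDH1, MDH1 and ACLY lie lower in every hypoxia library, and hypoxia replicate 3 is the low point for IDH2, SLC25A1 and GLUD1 and the high point for PC.

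The first step, glutamate to 2-oxoglutarate, divided by enzyme. GLUD1 (ENSG00000148672, chromosome 10, 87050486 to 87094866, minus strand), the dehydrogenase, was at 143, 155 and 146 CPM in normoxia and at 150, 143 and 106 CPM in hypoxia. These groups overlapped, with only hypoxia replicate 3 below the normoxia libraries. The log2 change was -0.16 ± 0.13 (SE; edgeR adjusted p = 0.303), and leaving out hypoxia replicate 3 brought it to -0.04 (adjusted p = 0.64). Scaling by library totals made GLUD1 a lower call, at -0.47 (adjusted p = 0.00708). Its processed and unprocessed pseudogenes and the retrocopy GLUD2 can share reads with it, so its values are uncertain to that extent. GLUD2 was between 0.222 and 0.783 CPM, and the pseudogene GLUD1P3 had 23 to 96 counts a library, against 1403 to 3221 for GLUD1.

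The aspartate aminotransferases fell together. GOT1 (ENSG00000120053, chromosome 10, 99396870 to 99431569, minus strand), which works in the cytosol, was at 63.1, 60.2 and 64.3 CPM in normoxia and 26.4, 26.4 and 25.8 CPM in hypoxia. The hypoxia libraries lay within 1.02-fold of each other, including replicate 3, and the groups did not overlap. GOT1 was 2.39-fold lower (log2 change -1.26 ± 0.10 SE, edgeR adjusted p = 1.91e-06). GOT2 (ENSG00000125166, chromosome 16, 58707131 to 58734357, minus strand), its mitochondrial counterpart, was at 173, 183 and 183 CPM in normoxia and 70.3, 82.7 and 90.1 CPM in hypoxia. No hypoxia library reached the lowest normoxia library, and GOT2 was 2.21-fold lower (log2 change -1.15 ± 0.11 SE, edgeR adjusted p = 5.78e-06).

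The isocitrate dehydrogenases moved in opposite directions. IDH1 (ENSG00000138413, chromosome 2, 208236227 to 208266074, minus strand), the cytosolic enzyme, was at 74.7, 82.2 and 77.4 CPM in normoxia and at 42.9, 42.6 and 47.3 CPM in hypoxia. All hypoxia libraries were lower, and IDH1 was 1.76-fold lower (log2 change -0.82 ± 0.10 SE, edgeR adjusted p = 3.89e-05). IDH2 (ENSG00000182054, chromosome 15, 90083045 to 90102504, minus strand), the mitochondrial enzyme, was at 24.7, 23.5 and 27.0 CPM in normoxia and at 48.2, 48.7 and 28.3 CPM in hypoxia. Hypoxia replicates 1 and 2 were far above normoxia, and replicate 3 was just above the highest normoxia library. IDH2 was 1.66-fold higher (log2 change 0.73 ± 0.19 SE, edgeR adjusted p = 0.00764), and leaving out hypoxia replicate 3 gave a log2 change of 0.92 ± 0.10 (adjusted p = 4.60e-06). Scaling by library totals ended the call, at 0.42 (adjusted p = 0.071).

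Citrate export and citrate cleavage also parted. SLC25A1 (ENSG00000100075, chromosome 22, 19175575 to 19178830, minus strand), the mitochondrial citrate carrier, was at 63.4, 60.5 and 68.3 CPM in normoxia and 134, 120 and 68.4 CPM in hypoxia. Its pattern was that of IDH2, with replicates 1 and 2 high and replicate 3 level with the highest normoxia library. The log2 change was 0.74 ± 0.22 (SE; edgeR adjusted p = 0.0192), or 0.96 ± 0.09 when hypoxia replicate 3 was left out (adjusted p = 6.71e-07). Leaving out normoxia replicate 2 ended the call, at 0.67 (adjusted p = 0.0646), and so did scaling by library totals, at 0.43 (adjusted p = 0.0978). ACLY (ENSG00000131473, chromosome 17, 41866908 to 41930542, minus strand), the citrate lyase, was at 187, 205 and 210 CPM in normoxia and 93.8, 101 and 106 CPM in hypoxia. Each hypoxia library was near a level of 100 CPM and far below every normoxia library. ACLY was 2-fold lower (log2 change -1 ± 0.09 SE, edgeR adjusted p = 6.28e-06).

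On the oxaloacetate side, MDH1 fell and PC did not pass the test. MDH1 (ENSG00000014641, chromosome 2, 63588609 to 63607197, plus strand), which regenerates cytosolic NAD by reducing oxaloacetate, was at 117, 117 and 116 CPM in normoxia and 63.2, 57.9 and 57.5 CPM in hypoxia. The groups were narrow and well apart, and MDH1 was 1.96-fold lower (log2 change -0.97 ± 0.09 SE, edgeR adjusted p = 5.79e-06). PC (ENSG00000173599, chromosome 11, 66848233 to 66958376, minus strand), a biotin enzyme that refills the cycle from pyruvate, was at 23.7, 19.1 and 21.4 CPM in normoxia and 21.9, 24.0 and 39.1 CPM in hypoxia. Only hypoxia replicate 3 was clearly above the rest. The log2 change of PC was 0.42 ± 0.21 (SE; edgeR adjusted p = 0.106). Leaving out hypoxia replicate 3 gave 0.07 ± 0.13 (adjusted p = 0.667), and leaving out hypoxia replicate 1 gave 0.56, which was called (adjusted p = 0.042).

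Strand use in the counting is not given in the sources used here, so reads of a member and of an overlapping gene on the other strand cannot be told apart. Of the PC exon bases, 10.5% are shared with LRFN4, an adhesion protein gene named here after its values were seen, whose level was 18.2, 14.1 and 16.0 CPM in normoxia and 29.7, 22.3 and 29.6 CPM in hypoxia. LRFN4 rose (log2 change 0.76 ± 0.16 SE, edgeR adjusted p = 0.00159), and its part in the PC values was not tested. GOT1 shares 19.3% of its exon bases with a non-coding gene at 1.81 to 8.46 CPM, which fell (log2 change -1.37 ± 0.34 SE, edgeR adjusted p = 0.0048). GLUD1 shares 13.2% with SHLD2, at 16.1 to 26.7 CPM, which fell as well (log2 change -0.58 ± 0.12 SE, edgeR adjusted p = 0.00189). The part of these genes in the GOT1 and GLUD1 values was not tested. For the other members with such an overlap, GOT2, IDH1, MDH1 and ACLY, the share was 4.30% or less.

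**Figure D2:**
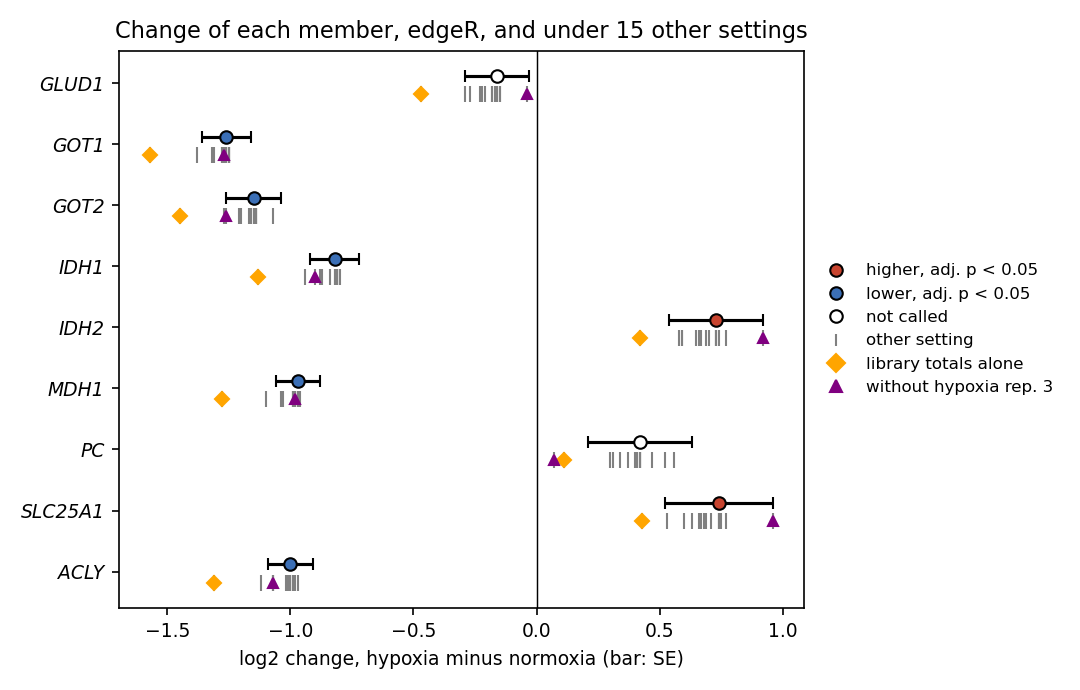
Log2 change (hypoxia minus normoxia) of each member: circles with SE bars give the edgeR fit, filled red or blue where called higher or lower, and ticks below give 15 other settings. GOT1, GOT2, IDH1, MDH1 and ACLY stay left of 0 in every setting, and IDH2 and SLC25A1 are lowest with library totals alone (orange) and highest without hypoxia replicate 3 (purple).

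Per kilobase of annotated exon, the order of the members changed between the groups. In normoxia GOT2 was highest, at 47.7 ± 1.49 CPM per kb (SD, n = 3), followed by GLUD1 at 42.1 ± 1.72, ACLY at 38.5 ± 2.34, SLC25A1 at 30.6 ± 1.89 and MDH1 at 23.4 ± 0.164 CPM per kb. GOT1 at 18.6 ± 0.635, IDH1 at 16.5 ± 0.806, IDH2 at 8.90 ± 0.623 and PC at 3.61 ± 0.395 CPM per kb came after. No neighbours in this normoxia order overlapped in their libraries. In hypoxia SLC25A1 came first, at 51.2 ± 16.4 CPM per kb, overlapping GLUD1 at 37.8 ± 6.74. Next were GOT2 at 21.5 ± 2.65 and ACLY at 19.2 ± 1.15 CPM per kb, which overlapped, then IDH2 at 14.8 ± 4.14 and MDH1 at 11.9 ± 0.630, which overlapped too. IDH1 at 9.37 ± 0.550, GOT1 at 7.77 ± 0.106 and PC at 4.78 ± 1.59 CPM per kb were lowest. Dividing by the longest transcript in place of all exons kept 3 of 9 ranks in normoxia and 4 of 9 in hypoxia, mainly because MDH1 moved from the fifth to the second place and from the sixth to the third.

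Ratios within a library compare the genes of a pair without any scaling between libraries. For 8 pairs the difference in mean log2 ratio between the groups was tested by exact two-sided permutation over the libraries. With 3 against 3 an exact permutation test cannot go below p = 0.1, or 0.133 after Benjamini-Hochberg adjustment here, so no pair can pass 0.05. GOT1 against GOT2, cytosol against mitochondria, overlapped between the groups: its log2 ratio was -1.52 ± 0.07 in normoxia and -1.62 ± 0.20 in hypoxia (SD, n = 3; exact permutation p = 0.5). The ratio of ACLY to ACSS2, which makes cytosolic acetyl-CoA from acetate, was 3.63 ± 0.25 and 3.42 ± 0.17 (SD, n = 3; exact permutation p = 0.3). ACSS2 itself fell 1.75-fold, from 16.1 ± 1.80 to 9.25 ± 0.528 CPM (edgeR adjusted p = 0.000969).

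The other 6 pairs had groups that did not overlap, each at the smallest exact permutation p of 0.1. The log2 ratio of IDH1 to IDH2 was 1.59, 1.80 and 1.52 in the normoxia libraries and -0.17, -0.19 and 0.74 in the hypoxia libraries, a difference of -1.51. Hypoxia replicate 3 lay between the normoxia libraries and the other hypoxia libraries. SLC25A1 to ACLY went from -1.56, -1.76 and -1.62 to 0.51, 0.25 and -0.63, a difference of 1.69 or 3.22-fold, again with replicate 3 nearest normoxia. The ratio of IDH2 to OGDH, the subunit of the 2-oxoglutarate dehydrogenase complex that takes 2-oxoglutarate forward, went from a mean of -2.32 ± 0.11 to 0.33 ± 0.57 (SD, n = 3), a 6.29-fold difference. OGDH alone was at 118, 129 and 130 CPM in normoxia and at 29.3, 32.0 and 35.3 CPM in hypoxia, so most of this shift was in OGDH.

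MDH1 against its mitochondrial counterpart MDH2 went from -1.08 ± 0.08 to -1.93 ± 0.11 (SD, n = 3), since MDH2 was at 247 ± 11.8 and 228 ± 13.8 CPM and was not called (edgeR adjusted p = 0.273). MDH2 was called lower with library totals alone, at a log2 change of -0.43 (adjusted p = 0.00241). GLUD1 against GPT2, the mitochondrial alanine aminotransferase, went from 2 ± 0.06 to -0.24 ± 0.44 (SD, n = 3). GPT2 rose 4.23-fold, from 37.4, 37.4 and 35.7 CPM to 134, 161 and 173 CPM (edgeR adjusted p = 1.42e-07). PC against PDHA1, the pyruvate dehydrogenase subunit at the other branch of mitochondrial pyruvate use, went from -1.69 ± 0.29 to -0.10 ± 0.55 (SD, n = 3). PDHA1 fell from 69.6 ± 10.4 to 29.4 ± 2.07 CPM (edgeR adjusted p = 1.22e-05), while PC itself was not called.

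**Figure D3:**
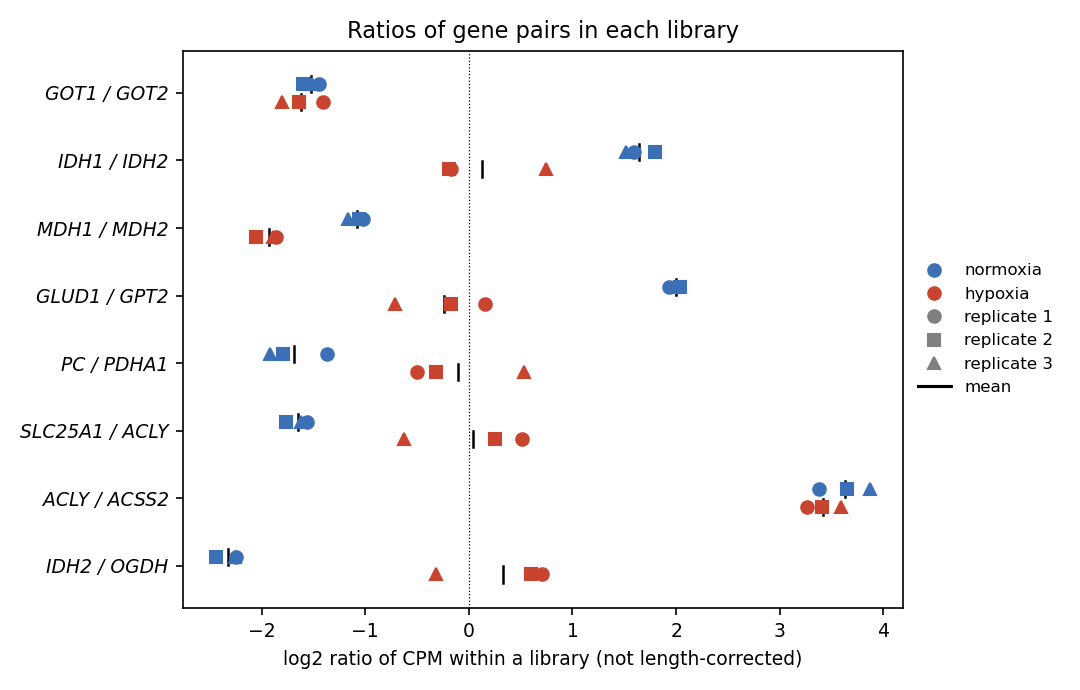
Log2 ratio of CPM of 8 gene pairs within each library (blue normoxia, red hypoxia, marker shape for the replicate, line for the mean). The GOT1 to GOT2 and ACLY to ACSS2 ratios overlap between the groups, while SLC25A1 to ACLY and IDH2 to OGDH shift by 1.69 and 2.65 on the log2 scale.

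Around the members, 86 other genes of these pathways were listed by function, with earlier results of these data known. Of 79 tested, 45 fell and 13 rose, with a median log2 change of -0.50, against 31.0% lower, 31.2% higher and a median of 0.01 over all tested genes.

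Upstream, in the list for glutamine uptake, breakdown and synthesis, 2 of 7 tested genes rose and 1 fell (median log2 change 0.17). SLC7A5, a large neutral amino acid exchanger that can trade glutamine out, rose from 128 ± 5.29 to 178 ± 8.75 CPM (edgeR adjusted p = 0.000814), a call lost with library totals alone (adjusted p = 0.185). SLC38A5, a glutamine carrier, rose from 2 counts over the 3 normoxia libraries to 154 counts over the hypoxia libraries (edgeR adjusted p = 8.30e-06), a scaled ratio of 120 with a 95% exact counting interval of 32.7 to 1000. It remained a low-level gene in hypoxia, at 3.37, 3.26 and 5.42 CPM. SLC38A1 fell 1.39-fold (edgeR adjusted p = 0.029), to 262, 283 and 427 CPM in hypoxia. Leaving out any 1 of normoxia replicates 2 and 3 and hypoxia replicates 1 and 2 ended that call (adjusted p from 0.0553 to 0.112). The SLC38A1 log2 change was -0.48, or -0.76 when hypoxia replicate 3 was left out.

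GLUL, the glutamine synthetase, and the carrier SLC38A2 were chosen after their values were seen. GLUL was at 85.7, 75.9 and 154 CPM in hypoxia and was not called (log2 change -0.01), but without hypoxia replicate 3 it was called lower, at -0.42 (edgeR adjusted p = 0.00109). SLC38A2 was at 288, 301 and 290 CPM in normoxia and 295, 251 and 1428 CPM in hypoxia, so its high mean came from hypoxia replicate 3 alone.

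Among other enzymes that use or form glutamate, 5 of 11 tested genes fell and 2 rose (median log2 change -0.14). GPT2 rose as given above, and ALDH18A1, which starts proline synthesis from glutamate, rose 1.70-fold to 154 ± 15.3 CPM (edgeR adjusted p = 7.59e-05). PYCR3, which acts later in proline synthesis, fell 8.86-fold, to 1.26 ± 0.455 CPM (edgeR adjusted p = 3.37e-06). PSAT1, the serine-pathway aminotransferase that turns glutamate into 2-oxoglutarate, fell from 208, 232 and 214 CPM to 55.9, 52.2 and 52.5 CPM (edgeR adjusted p = 4.82e-08). PSAT1 thus fell 4.07-fold while GPT2, which makes 2-oxoglutarate from glutamate in mitochondria, rose.

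Of 9 enzymes that take the amide nitrogen of glutamine, 5 fell and 2 rose (median log2 change -0.50). The nucleotide enzymes CTPS1, PFAS and CAD fell 9.87-fold, 9.07-fold and 6.09-fold. GFPT1, the first enzyme of the hexosamine pathway, rose 1.56-fold to 189 ± 18.1 CPM (edgeR adjusted p = 0.000288). ASNS, the asparagine synthetase, went from 4.48 ± 0.566 to 6.70 ± 0.966 CPM (edgeR adjusted p = 0.0388), a call lost in 9 of 15 other settings.

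Mitochondrial carriers were divided, with 5 of 9 tested lower and 3 higher (median log2 change -0.65). The aspartate-glutamate carriers SLC25A12 and SLC25A13, which work with GOT1, GOT2 and MDH1 in the malate-aspartate shuttle, fell 1.57-fold and 2.05-fold. SLC25A11, the 2-oxoglutarate-malate carrier of the same shuttle, went from 23.4 ± 1.76 to 30.1 ± 0.444 CPM (edgeR adjusted p = 0.0196), a call lost in 7 of 15 other settings. The glutamate carrier SLC25A22 rose 1.59-fold (edgeR adjusted p = 0.0017, or 0.0596 with library totals alone). The pyruvate carrier subunits went apart, MPC2 rising 1.79-fold to 39.2 ± 5.48 CPM and MPC1 falling 1.57-fold to 11.1 ± 1.65 CPM. UCP2, an inner membrane carrier of the uncoupling protein family, fell 3.62-fold.

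Of 19 tested enzymes that handle citrate, 2-oxoglutarate and malate outside the member list, 13 fell and 3 rose (median log2 change -0.46). OGDH, FH and IDH3A fell most, with FH, the fumarase, 2.86-fold lower and IDH3A, the catalytic subunit of the forward NAD-dependent isocitrate dehydrogenase, 2.44-fold lower at 11.9 ± 0.145 CPM. The other IDH3 subunits rose, IDH3G to 87.8 ± 8.61 CPM and IDH3B from 44.2 ± 3.74 to 58.9 ± 3.69 CPM. The IDH3B call was lost with library totals alone, with no filter on low counts and without normoxia replicate 2 (edgeR adjusted p = 0.415, 0.0952 and 0.0566). ME1, the cytosolic malic enzyme, which makes NADPH, went from 39.0 ± 1.49 to 47.5 ± 5.76 CPM (edgeR adjusted p = 0.0495), lost in 11 of 15 other settings, with the sign of its change turned in 1 of them (-0.02 with library totals alone).

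Downstream of ACLY, 6 of 8 tested genes of cytosolic acetyl-CoA supply and use fell and 0 rose (median log2 change -1.15). At an unadjusted p under 0.05 edgeR also gave 0 higher, as did DESeq2 and limma-voom, adjusted or not. ACACA, which commits acetyl-CoA to fatty acids, fell 3.33-fold from 118 ± 3.86 to 35.5 ± 2.06 CPM (edgeR adjusted p = 1.64e-07). FASN, the fatty acid synthase, and ACAT2, which joins 2 acetyl-CoA on the way to sterols, each fell 3.21-fold. Of 6 other NADPH sources, 4 fell (median log2 change -0.72), led by ALDH1L1 (2.95-fold), the mitochondrial transhydrogenase NNT (2.09-fold) and MTHFD1 (1.88-fold). None was called higher, and at an unadjusted p under 0.05 edgeR, DESeq2 and limma-voom each gave 1 higher. This was MTHFD2, a mitochondrial folate enzyme named after its values were seen, at a log2 change of 0.30 (edgeR adjusted p = 0.0581), or 0.41 without hypoxia replicate 3, where it was called (adjusted p = 0.000598).

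Of 7 regulators of the member enzymes, 4 fell and 1 rose (median log2 change -0.89). HLCS, which attaches biotin to PC and the acetyl-CoA carboxylases, fell 2.56-fold, and BTD, which recycles biotin, fell 2.29-fold. SREBF1, a transcription factor for lipid synthesis genes that include ACLY, fell from 97.8, 92.0 and 99.4 CPM to 51.4, 52.3 and 52.3 CPM (log2 change -0.89 ± 0.09 SE, edgeR adjusted p = 1.12e-05). Its relative SREBF2, which favours sterol genes, rose from 221 ± 2.41 to 303 ± 4 CPM (log2 change 0.46, edgeR adjusted p = 0.000659), a call lost with library totals alone (adjusted p = 0.207).

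**Figure D4:**
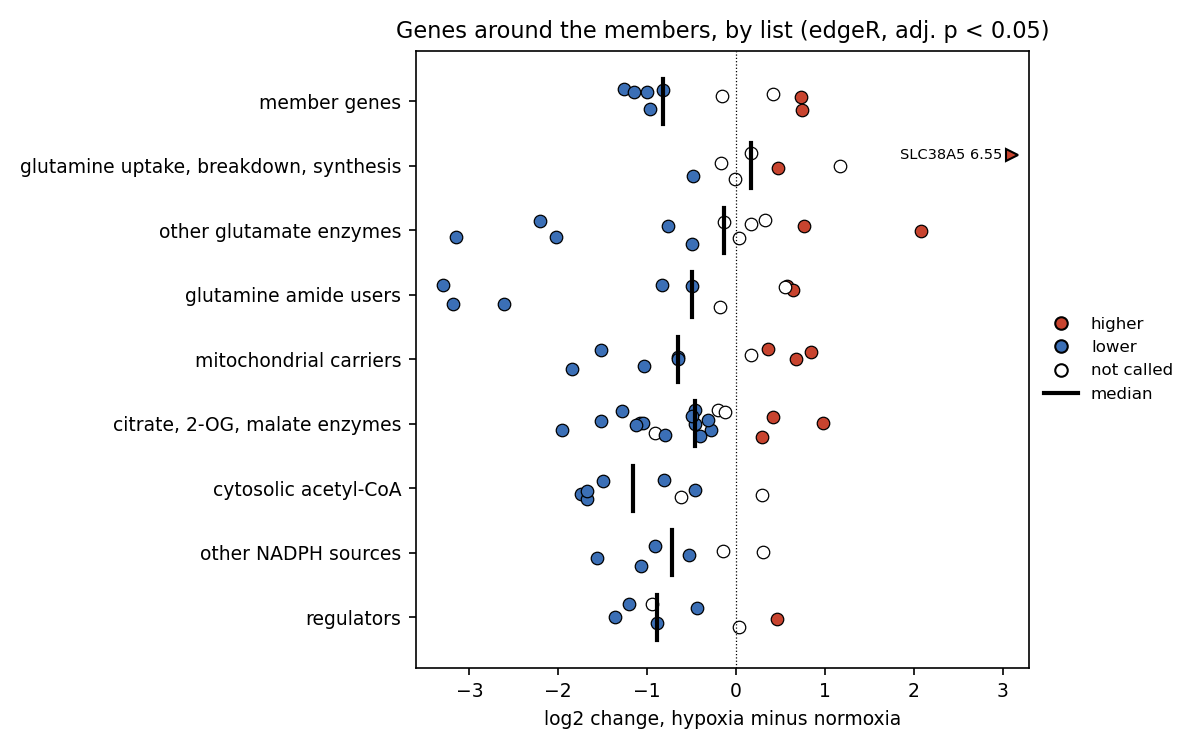
Log2 change (hypoxia minus normoxia) of every tested gene in the member list and 8 of the lists around it, red where called higher, blue where called lower, with a bar at the list median. The members lie on both sides of 0, SLC38A5, at 6.55, is drawn at the right edge, and in the cytosolic acetyl-CoA list 6 of 8 are lower and 0 higher.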

How the data were processed

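RNA-seq of 6 IOMM-Lee libraries was analysed. The authors deposited a table of raw read counts, 1 line per Ensembl gene. Per the submitters' processing notes, reads were handled with HISAT2 2.1.0, fastp 0.20.1 and featureCounts 2.0.1 on GRCh38.p13, and DESeq2 1.37.5 is named as well. The sources used here do not state RNA selection, strand setting or annotation release. A second deposited table of normalized values, whose cells run together, was not used here. Of 61860 lines, 1 names no gene (0.00243% of counts) and was left out. Positions and exon lengths are from GENCODE release 29 on GRCh38, and promoter windows from RefSeq (GRCh38.p14).

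Counts were tested with edgeR 4.0.16 in R 4.3.3 (filterByExpr, minimum count 10 and total 15, leaving 16411 genes; TMM; robust quasi-likelihood F test; adjusted p threshold 0.05). The SE is the log2 change divided by the square root of F. CPM use TMM-scaled totals, and ratios use log2 CPM with a prior count of 2. Floors and intervals cover counting error only. The test was also run on simulated data in which few genes changed. There the share of false calls was above the threshold, and most 1.5-fold changes were not called.

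Groups and replicate numbers come from the sample titles. No 2 libraries of a group agreed within sampling noise (mean chi-square 5.08 to 33.3 a gene). Members and lists were chosen with earlier results of these data known. Named were all members, all pair genes and, per list, up to 3 genes called in each direction, by size of change, with mean CPM of at least 1; exceptions are marked, and some genes under this rule are not reported here. Alternatives were DESeq2 1.42.0, limma-voom (limma 3.58.1), other scalings and filters, a replicate block, leaving out each library and leaving out the 10 most abundant genes.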

Additional observations from a re-analysis of the deposited data

How the results depend on the processing

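Under 15 alternatives, GOT1, GOT2, IDH1, MDH1 and ACLY were called lower each time. With library totals alone the median of all genes was -0.30 in place of 0.01, and 33.1% of called genes were higher in place of 50.1%. There edgeR called 0 members higher (1 at an unadjusted p under 0.05, and 2 by DESeq2 and limma-voom with their own scaling), and the count of genes around them called higher was 6 in place of 13. The ME1 change was -0.02. Leaving out 1 library gave 1 to 3 members called higher (1 without normoxia replicate 2) and 5 called lower. Dividing by the longest transcript kept 3 of 9 ranks in normoxia and 4 of 9 in hypoxia. Same-numbered libraries did not deviate together (correlations across genes of -0.106, 0.0864 and -0.0378), so the replicate block is only a number: with it, 2 members were called higher and 5 lower, and over all genes 4862 and 4906 in place of 5117 and 5091. All 72 alternative values of the 8 pairs kept their sign. GLUD1 and PC missed the threshold, which does not show that they did not change.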
